A study of Mus musculus with 4 samples.

Results

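Trim24 loss was examined in IL-4-treated peritoneal macrophages by setting the single Trim24-deficient (KO) library against the single wild-type (WT) library, gene by gene. Of 16403 genes listed in the series, 15605 had a read in at least 1 of these 2 libraries, and the 10563 with at least 50 reads summed over the pair were compared. The KO cells came from C57BL/6 mice labelled TIF1a-/-, in which a floxed Trim24 was removed in the myeloid lineage by Cre recombinase driven from the LysM (Lyz2) gene, and the WT cells from C57BL/6 littermates. Both were thioglycolate-elicited, adherent, serum-starved macrophages given mouse IL-4 at 20 ng/mL for 6 h. The other 2 of the 4 libraries, WT and KO cells without IL-4, gave a second pair of separate libraries for the same genotype comparison. Whether the treated and untreated cells came from the same mice is not given in the sources used here. With 1 library per group there was no replicate check, so every interval and adjusted p below covers counting error between 2 libraries and not the variation between mice.

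Trim24, also called TIF1a, is a nuclear protein with a RING finger that can act as an E3 ubiquitin ligase, and with a PHD finger and bromodomain that read modified histone tails. It is known as a coregulator of nuclear receptors such as the retinoic acid receptor. IL-4 binds a receptor at the macrophage surface, Janus kinases phosphorylate STAT6, and STAT6 enters the nucleus and drives the alternatively activated, or M2, programme with its arginase, chitinase-like proteins, lectin receptors and chemokines. The acetyltransferase CREBBP is a coactivator of STAT6. The study asked how Trim24 bears on this programme, and the IL-4-treated pair is where the M2 genes are switched on.

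After 6 h of IL-4 the KO macrophages held more RNA of several M2 effectors than WT. Arg1 was 1.72-fold, Slc7a2 1.78-fold, Chil3 1.91-fold and Flt1 2.62-fold higher. By contrast, the chemokines Ccl7 and Ccl2 were 2.11-fold and 1.71-fold lower and lysozyme Lyz2 2.03-fold lower. By over 1.5-fold, Arg1 and Chil3 were also higher, and Lyz2 lower, in the KO cells without IL-4. Stat6, the IL-4 receptor chain Il4ra and the mannose receptor Mrc1 stayed within 1.5-fold of WT. The antiprotease Slpi and wolframin Wfs1 were 4.67-fold and 2.52-fold higher, as they also were without IL-4, while the collagen genes Col1a1 and Col5a1 were higher in KO with IL-4 and lower without it. These values compare 1 library with 1 library.

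The libraries held between 11026033 and 11250099 expected reads each. Before any gene was read, 1 feature of the IL-4-treated pair had to be removed. The KO to WT ratio climbed with transcript length, with a Spearman correlation of 0.542 over 10138 genes, against 0.142 over the same genes in the untreated pair. The median log2 ratio was -0.18 among the shortest eighth of transcripts and 0.34 among the longest. The WT IL-4-treated library stood further from its own untreated library on this axis (correlation of its IL-4 ratio with length -0.393) than the KO IL-4-treated library did (-0.121). A smooth curve of the ratio over log2 length was subtracted, which left a correlation of -0.010 and medians between -0.0084 and 0.0068 in all eighths. All log2 ratios below are KO minus WT on the log2(FPKM + 0.1) scale after this step unless they are called uncorrected. FPKM values are given as deposited.

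**Figure D1:**
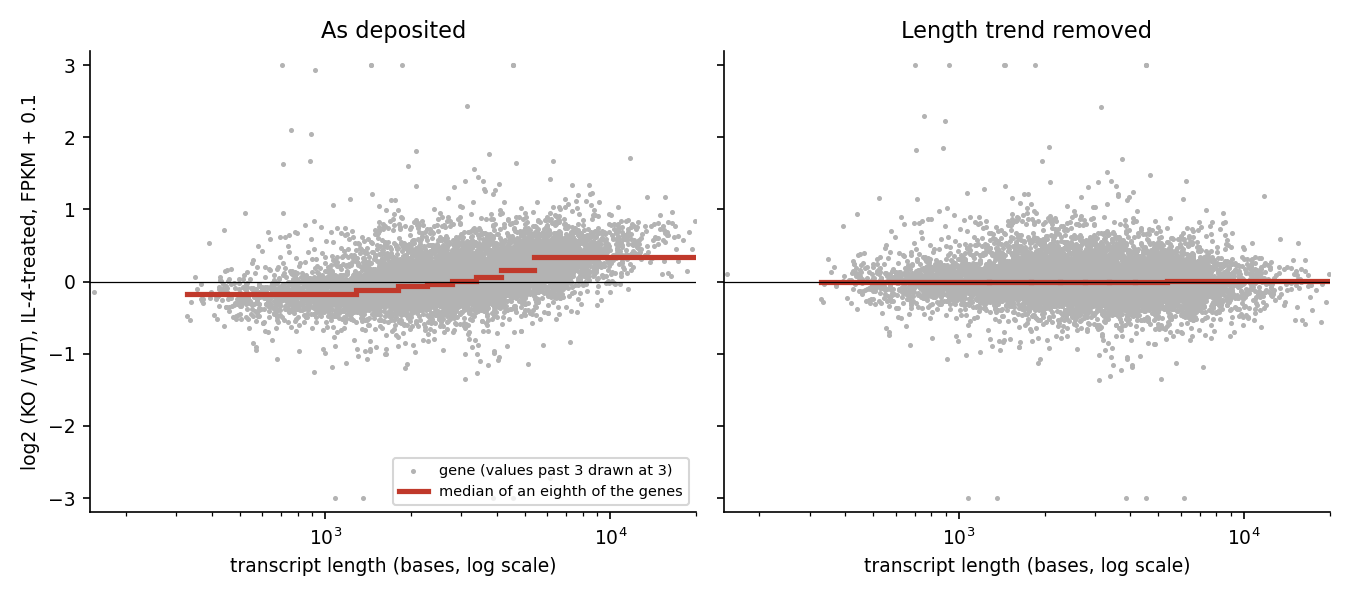
Log2 ratio of KO to WT FPKM in IL-4-treated macrophages (vertical axis) against transcript length in bases (horizontal, log scale), 1 grey point per gene, before (left) and after (right) the length trend was removed. Red bars are the medians of eighths of the genes, which ran from -0.18 to 0.34 as deposited and lay near 0 afterwards.

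A gene was called when its fold exceeded 1.5 and the exact binomial test of its reads, shifted by the length curve, had an adjusted p under 0.05 (Benjamini-Hochberg). By this rule 190 genes were higher (1.80% of genes tested) and 79 were lower (0.748%) in the KO library. By fold alone 278 genes (2.63%) lay above 1.5-fold higher and 127 (1.20%) above 1.5-fold lower. Of the higher genes 164 were protein-coding, 18 were long noncoding RNAs and 7 were pseudogenes, and 78 of the 79 lower genes were protein-coding. The called shares were thus small, and they leaned to the higher side, 70.6% of calls. Without the length step 522 genes were called, 83.0% of them higher, and 226 calls were shared in the same direction. In the untreated pair the same procedure called 109 genes higher (1.03%) and 108 lower (1.02%) of 10582.

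**Figure D2:**
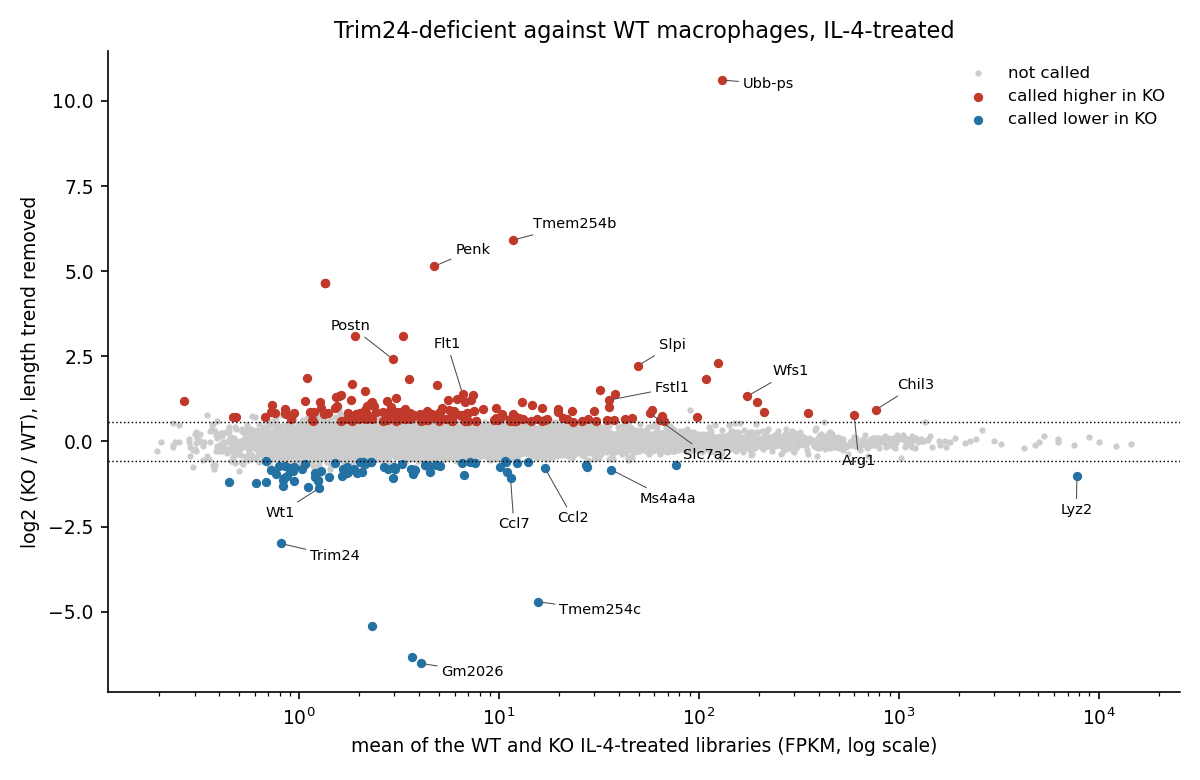
Log2 ratio of KO to WT after removal of the length trend (vertical axis) against the mean FPKM of the IL-4-treated pair (horizontal, log scale), 1 point per gene tested. Called genes are red (190 higher in KO) or blue (79 lower in KO), dotted lines mark 1.5-fold, and most calls lie under 2 in size with Penk, Sap25 and some pseudogenes and near-identical copies far outside.

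The deleted gene itself was checked first. Trim24, at chr6:37870811-37968445 (GRCm38), had 103 reads (1.48 FPKM) in the WT and 10 reads (0.14 FPKM) in the KO IL-4-treated library, and 175 against 4 reads in the untreated pair. Scaled to library size as CPM this was 9.16 (95% Wilson interval 7.55 to 11.1) against 0.907 (0.493 to 1.67). The log2 ratio was -2.99 ± 0.47 (counting SE), and -4.08 in the untreated pair, so both KO libraries carried little Trim24 RNA and matched their labels. Trim24 was a weakly expressed gene in these cells even in WT.

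Lyz2, lysozyme M, the gene whose locus carries the Cre in the LysM-Cre strain, was the most abundant called gene. It stood at 10811 FPKM in the WT and 4761 FPKM in the KO IL-4-treated library, a log2 ratio of -1.02 ± 0.01, and at 11289 against 5193 FPKM without IL-4 (-1.08). The ratios of the 2 pairs differed by 0.06 in log2. The other 9 of 10 macrophage markers measured (among them Adgre1, Csf1r, Cd68, Itgam and Mertk) were not called, and their list had a median log2 ratio of 0.00.

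Some effectors of the M2 programme were higher in the KO cells. Arg1, arginase 1, which turns arginine into ornithine, was at 463 FPKM in WT and 733 in KO. Its log2 ratio was 0.78 ± 0.02, or 1.72-fold. Chil3 (Ym1), a chitinase-like protein, rose from 555 to 983 FPKM (0.93 ± 0.02), and Retnla (Fizz1), a secreted resistin-like protein, from 29.7 to 39.7 FPKM (0.62 ± 0.14). These 3 were already higher in the KO cells without IL-4, where Arg1 stood at 1.84 against 5.40 FPKM, Chil3 at 7.17 against 11.1 and Retnla at 1.58 against 3.81. The log2 ratio without IL-4 was 1.53 for Arg1 and 0.65 for Chil3, both called there. Retnla had only 34 reads in that pair and was not tested, and with IL-4 it was under 1.5-fold without the length step (0.42) or with median-of-ratios centring (0.58). Neither tested difference between the pairs passed its adjusted p (0.106 for Arg1, 0.422 for Chil3). For Arg1 the 95% counting interval of the difference, IL-4-treated minus untreated, ran from -1.39 to -0.20 before adjustment. RSEM had to divide some Chil3 reads, since 41.5% of its 31-base words also occur in transcripts of genes elsewhere, but its closest copy, Chil4, was listed at only 0.56 and 0.27 FPKM.

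A palindromic pair of half-sites with 4 bases between them, TTCNNNNGAA, is the form of element STAT6 is known to bind. Of the M2 genes called here and present in the RefSeq promoter table, only Retnla held it in the 250 bases before its start, so this window is shown (GRCm38.p6, chr16:48842359-48842608, plus strand), with the motif in capitals at 145 to 136 bases upstream.
Retnla promoter: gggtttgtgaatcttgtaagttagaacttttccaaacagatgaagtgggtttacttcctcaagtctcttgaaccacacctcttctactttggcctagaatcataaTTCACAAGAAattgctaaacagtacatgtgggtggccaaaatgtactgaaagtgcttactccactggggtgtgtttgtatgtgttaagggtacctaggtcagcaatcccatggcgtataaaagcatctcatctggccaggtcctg
The pattern TTCNNNNGAA reads the same on both strands, and no other motif was searched. It occurred in 6.62% of 136 genes called higher, 6.56% of 61 called lower and 5.68% of 8545 tested genes with a promoter in the table. The called genes were close to the share of all genes.

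Another 4 M2 genes were called higher. Slc7a2, the cationic amino acid transporter that brings arginine into the cell, was at 34.5 FPKM in WT and 79.1 in KO (0.83 ± 0.03). Flt1, the VEGF receptor 1, was at 3.09 and 10.1 FPKM (1.39 ± 0.11), the largest M2 ratio. Mgl2, the galactose-binding lectin CD301b, was at 5.76 and 8.17 (0.61 ± 0.19), and F13a1, coagulation factor XIII subunit A, at 1.34 and 3.25 (1.13 ± 0.22). The pattern of these genes over treatment was not uniform. F13a1 was lower with IL-4 than without in both genotypes and differed by genotype to the same extent in the untreated pair (1.18, called). Slc7a2 stood at 1.52 against 2.30 FPKM without IL-4, Flt1 at 0.11 against 0.44 and Mgl2 at 0.17 against 0.61. Slc7a2 was not called in the untreated pair (0.51), and Flt1 and Mgl2 had too few reads there to test. The call of Mgl2 with IL-4 was lost without the length step (0.50), with TMM (0.571) or median-of-ratios centring (0.568) and at a pseudocount of 1 FPKM (0.54).

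**Figure D3:**
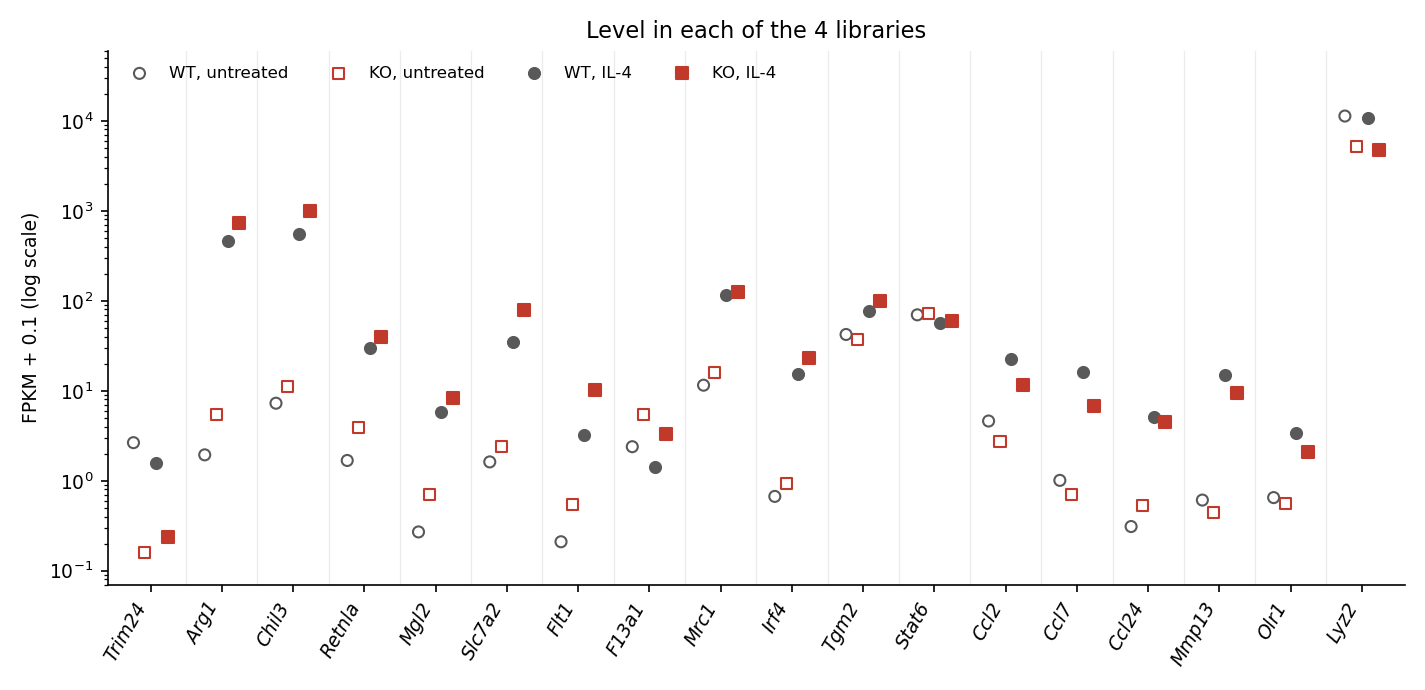
Level of 18 genes as FPKM plus 0.1 (vertical axis, log scale) in each of the 4 libraries, 1 marker per library: WT (circles) and KO (squares), untreated (open) and IL-4-treated (filled). Arg1, Chil3, Retnla, Slc7a2 and Flt1 lie higher in KO with and without IL-4 (Retnla and Flt1 on too few reads to test without), Ccl2 and Ccl7 lie lower, and Stat6 and Mrc1 are close to WT after IL-4.

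Also, 3 M2 genes were called lower. Ccl7, a monocyte-attracting chemokine, fell from 16.1 FPKM in WT to 6.72 in KO (-1.08 ± 0.21), Mmp13, collagenase 3, from 15.04 to 9.46 (-0.65 ± 0.11), and Olr1, the oxidized LDL receptor LOX-1, from 3.30 to 2.01 (-0.75 ± 0.20). Of 41 M2 genes measured, 7 (17.1%) were thus called higher (Retnla and Mgl2 not without the length step), against 1.80% of all genes, and 3 (7.32%) lower, against 0.748%. The gene lists, this one included, were chosen with earlier results of these data known, so these shares are not independent evidence. The median of the M2 list was 0.05, beside 0.00 over all genes tested, with 24 of 41 above 0. These calls rest on counting error alone: with biological variation assumed at a coefficient of 0.2 in edgeR's exact test, 0 M2 genes were called.

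The remaining M2 genes that the study followed were close to WT. Mrc1, the mannose receptor CD206, was at 115 FPKM in WT and 126 in KO, a log2 ratio of -0.08 ± 0.02 after the length step and 0.14 without it, so its sign depended on that step. Irf4, a transcription factor of the M2 programme, was at 15.4 and 22.8 FPKM (0.40 ± 0.07), and Tgm2, transglutaminase 2, at 76.3 and 99.2 (0.32 ± 0.03). Both had an adjusted p under 0.05 but stayed under 1.5-fold. Tgm2 differed between the pairs (difference 0.49, 95% counting interval 0.37 to 0.62), as it was at 42.1 against 37.2 FPKM without IL-4. Mrc1 differed too (-0.54, -0.69 to -0.39), at 11.4 against 15.9 FPKM without IL-4. Ccl24 was at 5.02 and 4.41 FPKM (-0.04 ± 0.25), and Ccl17, with 16 reads in all, was not tested. Counting all, 3 of the 7 measured genes that the study had singled out as M2 genes were called higher (42.9%, against 1.80% of all genes). These were Arg1, Chil3 and Retnla, the last lost without the length step, and none of the 7 was called lower. That list comes from the study of these same samples, so it is not independent evidence of direction.

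The signalling chain from the IL-4 receptor was nearly the same in both libraries. Stat6 stood at 56.0 FPKM in WT and 59.5 in KO, a log2 ratio of 0.00 ± 0.04, and Il4ra at 12.4 and 12.1 (-0.24 ± 0.08). The ratio of Stat6 changed sign with the scaling used and was under 0.10 in size in every setting. Crebbp was at 3.64 and 5.49 FPKM, which came to 0.23 ± 0.11 after the length step and was not called. Of 20 genes of this chain measured, only Ncoa1, a steroid receptor coactivator that also binds STAT6, was called. It rose from 2.82 to 5.67 FPKM (0.64 ± 0.12), while in the untreated pair it stood at 6.11 against 6.41 (difference between the pairs 0.64, 95% counting interval 0.36 to 0.93, adjusted p 0.000673). The Ncoa1 levels show that the WT IL-4-treated library, and not the KO one, was the low value of the 4. Its transcript is long (7346 bases), and its uncorrected log2 ratio was 0.98.

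Retinoic acid genes were included because Trim24 is a coregulator of the retinoic acid receptor. Of 17 measured, 2 (11.8%) were called higher, against 1.80% of all genes, and 0 lower, with a median of 0.14. The called genes were Ncoa1 and Cd38, an NAD-consuming ectoenzyme, which went from 1.51 to 3.21 FPKM (1.03 ± 0.24). The study's design did not add retinoic acid.

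Inflammatory chemokines and cytokines divided. Ccl2 fell from 22.45 FPKM in WT to 11.47 in KO (-0.78 ± 0.18), as Ccl7 did, and these are neighbouring ligands of the receptor CCR2. Tnf, tumour necrosis factor, fell from 2.39 to 1.14 FPKM (-0.91 ± 0.39, 44 against 20 reads). Ccl5, a chemokine for T cells, was higher, at 10.5 and 14.8 FPKM (0.70 ± 0.23), a call that was lost without the length step. Cxcl12, a chemokine of stromal cells, rose from 1.47 to 2.82 FPKM (0.92 ± 0.27). Of 24 M1 and inflammatory genes measured, 2 (8.33%) were called higher (Ccl5 and Cd38) and 2 (8.33%) lower (Tnf and Ccl2), with a median of -0.03. Of 9 CC chemokine ligands measured, 1 (11.1%) was called higher and 2 (22.2%) lower, with 2 of 9 above 0 and a median of -0.14. Over all genes 1.80% were called higher and 0.748% lower.

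Interferon-stimulated genes had a median of 0.09 with IL-4, with 26 of 38 above 0. In the untreated pair their median was 0.16, and 0 of 39 were called, beside 1.03% of all genes called higher and 1.02% lower. The 2 genes called with IL-4 were both higher (5.26%, against 1.80% of all genes). Ifit2, which binds viral RNA, was at 0.71 and 1.85 FPKM (1.17 ± 0.30), and Oasl1 at 2.09 and 3.67 (0.84 ± 0.26). Among 19 class I antigen presentation genes 3 (15.8%, against 1.80% of all genes) were called higher with IL-4. They were H2-T24 (21.4 and 38.3 FPKM, 0.89 ± 0.08), H2-M2 (3.30 and 5.32, 0.78 ± 0.24) and Nlrc5, the transactivator of class I genes (1.22 and 2.83, 0.83 ± 0.18). In the untreated pair 0 of 18 were called higher and 1 lower, against 1.03% and 1.02% of all genes. H2-T24 was at 29.1 and 41.2 FPKM there (0.52), H2-M2 at 2.36 and 3.98 (0.76) and Nlrc5 at 2.20 and 2.49 (0.13). Of these 3 only Nlrc5 differed between the pairs by over 1.5-fold at an adjusted p under 0.05. The class I median was 0.11 with IL-4 (0.0058 without the length step) and 0.10 in the untreated pair. The gene of that list called lower with IL-4 (5.26%, against 0.748% of all genes) was H2-Q7, at 9.24 and 4.16 FPKM (-0.98 ± 0.24). H2-Q9, a near copy, moved the other way, at 4.39 and 9.18 FPKM. Their summed reads were 203 in WT and 206 in KO, so the pair as a whole differed little.

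Several of the genes highest in the KO cells were called higher without IL-4 as well. Slpi, secretory leukocyte protease inhibitor, an antiprotease that dampens macrophage activation, was at 19.2 FPKM in WT and 79.7 in KO with IL-4 (2.22 ± 0.12), and at 23.7 and 71.6 without (1.64), a difference between the pairs of 0.58 (95% counting interval 0.27 to 0.90). Wfs1, wolframin, a protein of the endoplasmic reticulum membrane, was at 96.6 and 254 FPKM with IL-4 (1.33 ± 0.03), and at 61.4 and 186 without (1.61), a difference of -0.28 (-0.36 to -0.19). Fstl1, a secreted follistatin-like glycoprotein, was at 20.7 and 50.3 with IL-4 (1.21 ± 0.06), and at 29.1 and 67.9 without (1.22), a difference of -0.01 (-0.16 to 0.14). In all 3 genes both KO libraries stood above both WT libraries. Colec12, a scavenger receptor with a collagen-like stalk, did so too, at 16.2 and 47.9 FPKM with IL-4 (1.52 ± 0.07), and at 20.8 and 63.2 without (1.60).

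Penk, which encodes the precursor of the enkephalins, was nearly absent from WT. It had 3 reads in the WT and 147 in the KO IL-4-treated library (0.19 and 9.32 FPKM), a CPM ratio whose exact 95% counting interval ran from 16.8 to 245. Without IL-4 it had 0 and 83 reads. Cldn23, a claudin of tight junctions, was at 0.34 and 3.49 FPKM with IL-4 (3.10 ± 0.55) and at 0.49 and 4.42 without. Shmt1, cytosolic serine hydroxymethyltransferase of one-carbon metabolism, was at 0.43 and 1.75 with IL-4 (1.86 ± 0.50) and at 0.83 and 2.36 without. These genes were low in absolute terms in all 4 libraries. Other abundant genes higher in both pairs were Wdr92 (20.4 and 55.5 FPKM with IL-4, 1.39 ± 0.06), a chaperone-associated WD repeat protein, Cdk2ap2 (25.3 and 45.5, 1.02 ± 0.11), and Tspan7, a tetraspanin (9.75 and 19.6, 1.08 ± 0.13).

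Taking all calls, 179 of the 190 genes higher with IL-4 had enough reads in the untreated pair, and 155 of them (86.6%) were above 0 there too, against 48.8% of the 10337 genes tested in both pairs. The median was 0.82 with IL-4 and 0.43 without. Of the 79 lower genes 62 were tested without IL-4, and 53 (85.5%) were below 0, with medians of -0.82 and -0.54. Both sets were chosen by their ratio with IL-4. The larger size of the medians in that pair is fixed by that choice and is not a result. The call itself was shared by 48 of these 179 higher and 25 of these 62 lower genes, while 4 higher genes were called lower in the untreated pair. Over all genes of the untreated pair 1.03% were called higher and 1.02% lower. The genotype ratio differed between the pairs, at an adjusted p under 0.05 and by over 1.5-fold, for 105 genes, of which 29 were among the higher and 9 among the lower calls.

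**Figure D4:**
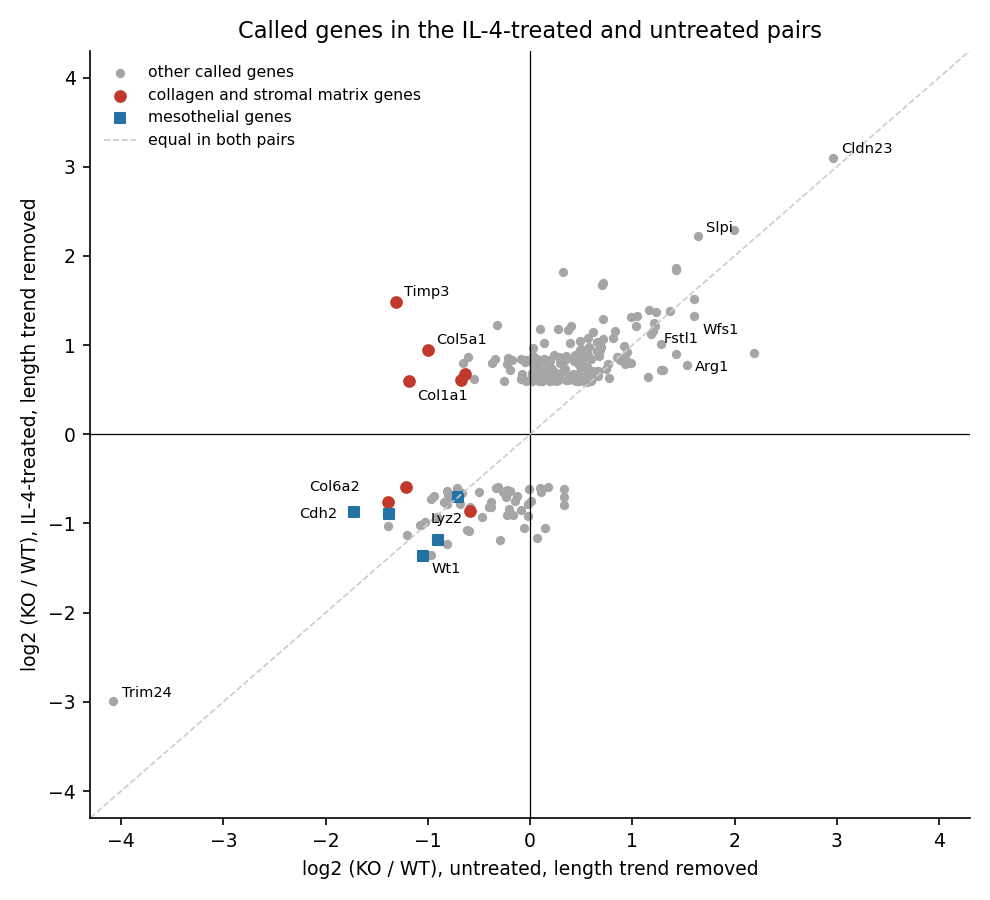
Log2 ratio of KO to WT in the IL-4-treated pair (vertical axis) against that in the untreated pair (horizontal), both after removal of their length trends, for 234 called genes tested in both pairs (7 with a value past 4.3 in size are not drawn). Red points are called genes of the collagen and stromal matrix list. Blue squares are called genes of the mesothelial list drawn up after the values were seen, and the dashed line marks equal ratios. Timp3, Col5a1 and Col1a1 lie at the upper left, higher in KO with IL-4 and lower without.

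The 4 genes with opposite calls were Col1a1, Col5a1, Timp3 and Lox, all genes of fibroblast matrix. Col1a1, the type I collagen chain, was at 8.46 FPKM in WT and 15.4 in KO with IL-4, and at 10.9 and 4.81 without. Its log2 ratios were 0.59 ± 0.08 and -1.19, a difference of 1.80 (95% counting interval 1.56 to 2.04), but its call with IL-4 was lost with TMM (0.558) or median-of-ratios centring (0.555) and at a pseudocount of 1 FPKM (0.568). Timp3, a tissue inhibitor of metalloproteinases, was at 0.99 and 3.31 FPKM with IL-4 and at 1.46 and 0.53 without (difference 3.03, 2.26 to 3.80). The order of the 2 genotypes was thus reversed between the pairs. Col5a1 behaved likewise, at 0.44 and 1.27 FPKM with IL-4 and at 0.80 and 0.37 without (difference 2.26, 1.497 to 3.03). Lox, lysyl oxidase, which cross-links collagen, was at 1.53 and 2.80 with IL-4 and at 3.03 and 1.92 without (1.37, 0.83 to 1.90).

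Another 3 matrix and contractile genes of the gene lists were called higher with IL-4. Postn, periostin, had the largest ratio of them, from 0.85 to 5.05 FPKM (2.42 ± 0.28), and was at 0.37 and 0.49 without IL-4, in too few reads to test. Col5a2 was at 0.78 and 1.56 FPKM (0.61 ± 0.23), and Acta2, the smooth muscle actin of myofibroblasts, at 3.21 and 5.56 (0.80 ± 0.19). The collagen VI chains went the other way. Col6a1 fell from 12.6 to 8.95 FPKM (-0.59 ± 0.09) and Col6a2 from 12.5 to 7.77 (-0.76 ± 0.10), and both were lower in the untreated pair by more (-1.21 and -1.39). The call of Col6a1 with IL-4 was lost without the length step (-0.487), at a lowess fraction of 0.1 (-0.580) and at a pseudocount of 1 FPKM (-0.535). Loxl1 was at 1.22 and 0.65 FPKM (-0.86 ± 0.36). Called matrix genes outside the lists included Col12a1, Emilin1, Pcolce and Omd on the higher side and Fbln2 and Nid1 on the lower side. Of 27 collagen and stromal matrix genes measured, 6 (22.2%) were called higher and 3 (11.1%) lower, against 1.80% and 0.748% of all genes, with a median of -0.03, while in the untreated pair 14 of 26 were called lower, against 1.02% of all genes, with a median of -0.69.

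Markers of mesothelial cells and fibroblasts are given beside these genes. The summed level of 10 such markers was 43.1 FPKM in WT and 46.3 in KO with IL-4, and 50.6 and 25.7 without. The 7 measured with IL-4 had a median log2 ratio of -0.50, with 3 of 7 above 0. Col1a1, itself one of the matrix genes, was called higher (14.3%, against 1.80% of all genes) and Wt1 lower (14.3%, against 0.748%). Wt1, a transcription factor of the mesothelium, was at 1.86 and 0.67 FPKM (-1.37 ± 0.35), and at 1.98 and 0.90 without IL-4 (-1.04). In these bulk libraries fewer cells of a type and less RNA per cell cannot be told apart, and the part of such cells in the matrix results was not tested. Of the defining mesothelial genes of the list, Msln was at 0.08 and 0.55 FPKM with IL-4 and Upk3b at 0.31 and 0.13, both in under 50 reads, and the fibroblast gene Lum was listed at 0 in WT with 2 reads in KO. The marker genes did not share 1 direction with IL-4, as Col1a2 stood at 9.71 and 12.8 FPKM and Dcn at 13.6 and 8.94. Without IL-4 all 6 measured were called lower in KO, against 1.02% of all genes.

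A second list of mesothelial genes was drawn up from the lower calls after the values were seen, so the number of its genes called (8 of 10, beside 0.748% of all genes) is fixed by that choice and is not a result. The 8 called were Wt1, Lrrn4, Krt8, Krt18, Igfbp6, Prg4, Cdh2 and Cdh3, with ratios from -1.37 to -0.71. Igfbp6, which binds insulin-like growth factors, was at 6.12 and 2.95 FPKM, Krt18, a keratin of simple epithelia, at 5.05 and 2.35, and Lrrn4 at 1.73 and 0.75. The summed level of the list was 44.8 FPKM in WT and 32.8 in KO with IL-4, and 26.4 and 13.9 without. In the untreated pair 6 genes of the list were measured and 4 were called lower, beside 1.02% of all genes, with none called higher. Vcam1, an adhesion molecule for leukocytes (1.22 and 0.45 FPKM, -1.31 ± 0.40), was lower with IL-4 and had too few reads to test without, and Lamb1, a laminin chain (1.11 and 0.56, -1.12 ± 0.29), was called lower in both pairs. Cyp1b1, a monooxygenase that also metabolizes retinoids (1.56 and 0.65, -1.35 ± 0.28), and Plod2, which hydroxylates collagen (0.88 and 0.34, -1.23 ± 0.45), were called lower in both pairs as well. These last 4 genes stood below 2 FPKM in both libraries.

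Markers of other cells were scarce. No T or NK cell marker and no dendritic cell marker reached 50 reads, and their summed levels with IL-4 were 1.05 and 1.43 FPKM, and 0.99 and 1.21. The mast cell protease Cpa3 was called higher on 15 against 36 reads (0.92 and 2.26 FPKM, 1.33 ± 0.44), and was at 1.19 and 2.51 without IL-4. Gata6, the factor of resident large peritoneal macrophages, was lower, at 2.13 and 1.19 FPKM (-0.82 ± 0.28). The remaining 4 of 5 measured markers of that cell were not called, so the share called lower was 20.0%, against 0.748% of all genes. The part of these cells in the other results was not tested.

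The higher calls held 5 genes of the oxygen-sensing (HIF) pathway and its targets, picked out after the values were seen. They belong to a list of 27 measured genes that was drawn up because of them, so their number (5 of 27, beside 1.80% of all genes) is fixed by that choice and is not a result. Epas1, which encodes the oxygen-regulated factor HIF-2 alpha, was the most abundant of these, at 44.5 FPKM in WT and 87.1 in KO (0.75 ± 0.03). Egln3, a prolyl hydroxylase that marks HIF for degradation, was at 1.67 and 3.86 (1.18 ± 0.24), and Ankrd37 at 0.69 and 5.94 (3.11 ± 0.56), on 7 and 59 reads. Ak4, a mitochondrial adenylate kinase, was at 2.54 and 5.0 (0.76 ± 0.15), and Slc16a3, the lactate exporter MCT4, at 11.51 and 17.3 (0.61 ± 0.10), a call lost without the length step (0.58), with TMM or median-of-ratios centring and at a pseudocount of 1 FPKM. Slc16a3 was also the only call among 24 glycolysis and pentose phosphate genes (4.17%, against 1.80% of all genes called higher), whose median was 0.03. The other 22 genes of the list were not called.

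Among the more abundant lower genes, Ms4a4a, a tetraspan surface protein of M2-type macrophages, fell from 48.3 to 24.3 FPKM (-0.82 ± 0.11). It was at 1.51 and 1.66 FPKM without IL-4, too few reads to test. Ctsc, cathepsin C, which activates granule serine proteases, was at 31.4 and 23.7 FPKM (-0.74 ± 0.04), and Slc7a11, the cystine transporter, at 83.5 and 69.7 (-0.69 ± 0.02). Both have long transcripts (7284 and 9227 bases), and their uncorrected log2 ratios were -0.40 and -0.26, so that they were called only once the length trend was removed. Fasn, fatty acid synthase (7.53 and 6.81 FPKM), was another such call, at -0.61 ± 0.07 against -0.14 uncorrected. Ifi202b, an interferon-inducible DNA sensor, was at 34.3 and 20.2 FPKM (-0.68 ± 0.09) and was lower without IL-4 as well (-0.81, called). Ass1, argininosuccinate synthase, which rebuilds arginine, was at 8.15 and 4.86 FPKM (-0.64 ± 0.19), and lower without IL-4 as well (-0.81, called). Among 19 arginine and polyamine genes, whose median was -0.05, Arg1 and Slc7a2 were called higher (10.5%, against 1.80% of all genes). Ass1 was the call on the lower side (5.26%, against 0.748%).

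Gene groups that mark the general state of the cells moved little in their medians. Of 38 lists with at least 5 measured genes, 13 held no called gene, among them 65 cytosolic ribosomal proteins (median -0.04), 52 oxidative phosphorylation subunits (-0.01), 32 cell cycle genes (-0.10), 17 Toll-like receptor genes (0.07), 13 integrin subunits (0.02), 9 class II presentation genes (0.10) and 15 complement genes (0.07). The medians of these 13 lists lay between -0.10 and 0.16. As 1.80% of all genes were called higher and 0.748% lower, lists of this size would hold few calls or none at that share. Uncorrected, the ribosomal median was -0.21 and the oxidative phosphorylation median -0.19, both lists of short transcripts. The largest displacement downward among the antioxidant and metabolic lists was that of 16 NRF2 target genes, with a median of -0.21 and 1 of 16 above 0. Slc7a11 was the only call among them (6.25%, against 0.748% of all genes called lower). Of 29 cholesterol and fatty acid synthesis genes 4 were above 0, with a median of -0.14.

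Many of the most extreme ratios, apart from those of Penk and Sap25, belonged to genes with near-identical copies or to pseudogenes, whose reads RSEM divides by a model. Ubb-ps, a ubiquitin B pseudogene, was at 0.09 FPKM in WT and 260 in KO, and at 1.81 and 270 without IL-4. Summed with Ubb the reads were 20627 in WT and 17807 in KO, a log2 CPM ratio of -0.18. Tmem254b rose from 0.32 to 23.1 FPKM while Tmem254c fell from 30.5 to 0.97, and the sum with Tmem254a was 521 against 388 reads (-0.40). The paired swings of single copies were thus far smaller in the sums. Gm2026, a zinc finger gene, had 418 reads in WT and 0 in KO, at least 137-fold lower, whereas Gm14434, Gm4724 and Gm14308 each had 0 in WT and 137 in KO, at least 46.6-fold higher. The sum of these 4 was 418 against 411 reads. Fam177a was listed with 324 reads in WT and 0 in KO, at least 106-fold lower, while Fam177a2 had 314 and 525, and their sum differed by -0.25 in log2. Setting aside called genes that share over 50% of their 31-base words with a gene elsewhere, or have no GENCODE transcript to check, left 158 higher and 71 lower calls. Sap25, a corepressor subunit gene with no words shared with genes elsewhere, was listed with 55.5 reads in WT and 0 in KO, at least 18.1-fold lower. Without IL-4 it had 0 and 13.1 reads. The word count leaves out overlapping genes, and Sap25 overlaps Gm20605, so the division of reads between them was not tested. Of the called genes 124 of 268 with a position overlap another RefSeq gene, Sap25, Timp3 (within Syn3) and Postn among them. As the use of strand in counting is not stated, reads of overlapping genes cannot be told apart.

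The remaining genes at either end of the ranking were mostly noncoding or little studied. On the higher side, the long noncoding RNA Gm12505 stood at 46.9 FPKM in WT and 202 in KO (2.30 ± 0.08), the pseudogene Gm12191 at 134 and 258 (1.16 ± 0.07) and the zinc finger gene Zfp972, which shares 70.8% of its words with genes elsewhere, at 51.7 and 165 (1.85 ± 0.07). These 3 were called higher without IL-4 as well. Rassf8, a Ras-association domain protein, was at 13.99 and 25.6 FPKM (0.95 ± 0.11), and Gm10865, Olfr1033 and 1700063D05Rik had log2 ratios of 1.15, 1.70 and 1.82. On the lower side, Serpinb1a, an inhibitor of neutrophil proteases, was at 4.08 and 1.80 FPKM (-1.07 ± 0.28), and Trim2, a ubiquitin ligase, at 0.60 and 0.29 (-1.18 ± 0.36). P3h4, Rpl37rt, Fam174c and Morf4l1b had log2 ratios of -1.13, -0.88, -0.61 and -0.60.

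The neighbourhood of the deleted gene was looked at because sequence flanking a targeted gene is bred along with it. Within 10 Mb of Trim24, 67 genes were tested, 3 (Hipk2, Creb3l2 and Dennd11) were called higher and 0 lower, with a median of -0.05. Hipk2, a homeodomain-interacting kinase 0.817 Mb away, was at 10.5 FPKM in WT and 22.6 in KO (0.98 ± 0.08), Creb3l2, 0.544 Mb away on the other side, at 2.39 and 4.05 (0.70 ± 0.19), and Dennd11 at 2.37 and 7.40 (1.67 ± 0.23). Within 10 Mb of Lyz2, 60 genes were tested, F420014N23Rik was called higher (1.59 and 2.79 FPKM, 0.81 ± 0.28) and Usp15, a deubiquitinase, lower (7.86 and 7.29 FPKM, -0.63 ± 0.07, and -0.11 uncorrected). Over all genes 1.80% were called higher and 0.748% lower. The share called higher near Trim24 was above that over all genes, on 3 genes. The lower side held 0 of 67 near Trim24 and 1 of 60 near Lyz2, and Usp15 was not called without the length step. In the untreated pair the ratio was 0.58 for Hipk2, 0.23 for Creb3l2 and 0.70 for Dennd11, of which only Dennd11 was called.

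Calls reached down to the lower limit of the comparison, since Shmt1, with 10 and 40 reads, was one. Espl1, Ch25h and Ctse, also with 50 reads over the pair, were not called and had ratios of -0.00, 0.17 and -0.57, and F11r, Ikzf2 and Gcnt2, left out with 49.7 to 49.9 reads, -0.56, -0.27 and -0.17.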

How the data were processed

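The authors aligned HiSeq reads of total RNA to the mouse genome (GRCm38/mm10, Bowtie) and estimated gene levels by RSEM. Tool versions and strand use are not given in the sources used here. The deposited expected counts need not be whole (22.2% to 22.8% were not). The authors' FPKM values, deposited with 2 decimals, divide counts by effective length and library total. The length column deposited beside them is the transcript length in bases. Unlisted genes were set to 0. IDs were matched to RefSeq (GRCm38.p6, 16365 matched and 38 not).

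The log2(FPKM + 0.1) ratio was smoothed over log2 length by lowess (fraction 0.3, statsmodels 0.14.6) on genes with at least 50 reads, 200 bases and a mean of 1 FPKM, and the curve was subtracted. The pseudocount shrinks ratios of low genes. Counts, rounded, were compared by a two-sided exact binomial test, with its expected share shifted by the curve and Benjamini-Hochberg adjustment over genes with at least 50 reads. Differences between pairs used a normal test on log2 counts plus 0.5 with counting errors, adjusted likewise. Wilson intervals cover counting error only. The procedure was tested on simulated data. Alternatives used TMM (edgeR 4.0.16) and median-of-ratios (DESeq2 1.42.0) centres and edgeR's exact test at assumed dispersions. Shared 31-base words were counted in GENCODE transcripts.

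Named genes were Trim24, the study's M2 genes, Stat6, Crebbp and Il4ra, the 15 highest and 15 lowest calls, the same among calls with a mean of at least 10 FPKM, called list members, and calls within 10 Mb of Trim24 or Lyz2. Genes, lists and rules were chosen with earlier results of these data known.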

Additional observations from a re-analysis of the deposited data

Results flagged for a closer look

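The genotype effect differed between the IL-4-treated and the untreated pair for 18 named genes, by a test of the difference of the log2 read ratios (adjusted p under 0.05, over 1.5-fold). Positive values mean a higher KO to WT ratio with IL-4. Among matrix and contractile genes the differences were 3.03 for Timp3, 2.26 for Col5a1, 1.80 for Col1a1, 1.50188 for Acta2, 1.44 for Col5a2, 1.37 for Lox, 0.64 for Col6a2 and 0.64 for Col6a1. The first 6 of these were called higher in KO with IL-4. Without it Timp3, Col5a1, Col1a1 and Lox were called lower and Acta2 (-0.66) and Col5a2 (-0.68) were not called, and the collagen VI genes were lower in KO in both pairs, by less with IL-4. The mesothelial and fibroblast markers given above had a median of -0.50 with IL-4, and their part was not tested.

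Among genes of other functions the differences were 0.99 for Dennd11, 0.74 for Nlrc5, 0.72 for Sesn2, a stress-induced inhibitor of mTORC1 signalling (7.43 FPKM in WT and 11.4 in KO with IL-4), and 0.64 for Ncoa1. They were -0.59 for Ctsc, -0.70 for Morf4l1b, a retrogene copy of a chromatin protein gene, and -1.35 for Vsig10, an immunoglobulin-domain protein at 1.31 and 0.58 FPKM with IL-4 and at 1.44 and 1.51 without. The near-identical zinc finger genes Gm14308, Gm4724 and Gm14434 each had a fitted difference of 6.43 (95% counting interval 2.40 to 10.5 for Gm14308), which rests on the 0.5 added to a WT IL-4-treated count of 0 and is no bound. Their family, summed with Gm2026, had 418 and 411 reads with IL-4 and 142 and 419 without.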

How the results depend on the processing

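No paired analysis was possible because each group holds 1 library, and for the same reason no replicate could be left out. The sign of the ratio was kept by 105 of 106 named genes without the length step, Mrc1 being the exception (0.14). Stat6 changed sign at a lowess fraction of 0.6 (-0.0048) and with TMM (-0.032) or median-of-ratios centring (-0.035). The number of calls with IL-4, 269, became 522 without removal of the length trend, 166 at a pseudocount of 1 FPKM, 134 at a minimum of 200 reads and 71 at a fold above 2. When biological variation was assumed at a coefficient of 0.1, 0.2 or 0.4 in the exact test of edgeR, it became 58, 17 and 10. At 0.2, the genes still called with at most 5.2% shared words were Trim24, Penk, Slpi, Postn, Ankrd37, Cldn23 and Sap25, and 0 M2 genes remained, nor did Ccl2, Lyz2, Wfs1 or Col1a1. At 0.1, Arg1, Chil3, Flt1, Slc7a2, F13a1 and Ccl7 were the M2 genes still called, and Retnla, Mgl2, Mmp13 and Olr1 were not. The untreated count, 217, became 135 at a pseudocount of 1 FPKM, 98 at 200 reads, 87 at a fold above 2, and 54, 9 and 7 at these assumed variations. The count of genes that differed between the pairs, 105, became 312 without the length step, an alternative chosen after seeing the data. Class I genes moved from a median of 0.11 to 0.0058 without it. A pseudocount of 1 FPKM lowered 24 of 106 named genes below 1.5-fold, and the share of higher calls was 62.5% with TMM centring. A gene with 0 reads in the KO IL-4-treated library could hold up to 0.272 CPM (3 reads). Genotype and library cannot be told apart in any comparison.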
